A study of Homo sapiens with 18 samples.

Results

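The genes described here were 42 heat shock proteins and co-chaperones, taken from the 63677 rows of a gene count table by matching Ensembl identifiers to a list of symbols. They comprised 8 HSP70 genes, 3 HSP110 genes, 3 HSP90 genes, 3 small heat shock protein genes, the mitochondrial chaperonin pair HSPD1 and HSPE1, 9 HSP40 (DNAJ) genes, 4 BAG genes, the transcription factor genes HSF1 and HSF2, 7 co-chaperones of HSP90, and SERPINH1. The symbols were selected on gene family and not on a threshold, but the question put to them, whether a heat shock response was limited to TBX3 overexpression, was chosen by the values of TBX3 against the controls in these same libraries. Values in that comparison are therefore given as a description, without p-values, and where its genes are counted at the common threshold the count supports nothing. Of the 42 genes, 40 had enough counts to be tested (more than 5 counts in at least 10 of 18 libraries), among 15576 genes tested in all. HSPB8, with 0 to 3 counts per library, and CRYAB, with 0 to 2, did not pass.

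Molecular chaperones hold or refold proteins that have lost their shape. HSP70 proteins bind exposed stretches of unfolded chains and release them under the control of HSP40 (DNAJ) partners, which deliver substrates, and of HSP110 and BAG proteins, which make them let go of nucleotide. HSP90 acts later, on near-native clients such as kinases and receptors, with co-chaperones that recruit clients and time its cycle. When proteins misfold, HSF1 is freed from chaperones, forms trimers and binds heat shock elements, repeats of the unit GAA and its complement TTC in alternating orientation, in front of the inducible genes. Some family members (HSPA1A, HSPA1B, DNAJB1, HSPB1, HSPH1, BAG3) are textbook inducible genes, whereas others (HSPA8, HSP90AB1, HSPA9, HSPD1) are abundant in unstressed cells.

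The libraries were total RNA from NCI-H1299, an established human lung cancer cell line, sequenced in pairs of reads. Each TBX group held 3 libraries from cells transiently transfected with a plasmid: human FLAG-tagged TBX2 or TBX4 in a pORF vector, human HA-tagged TBX3 in pCGN, or mouse HA-tagged Tbx5 in pCGN. The controls were 3 libraries with an empty vector (EV) and 3 named only Ctl. What the Ctl cells received is not given in the labels, and which vector was empty is not given in the sources used here. The time between transfection and RNA extraction is likewise not given there, and nothing in the labels says that libraries a, b and c of a group came from separate cultures, so p-values measure the spread between these libraries. Transfection was transient, so a library mixes transfected and untransfected cells. Library 4c carries a title that ends in TBX5 and a number that places it with TBX4. It held 85197 counts of TBX4 and at most 1 of TBX5, was kept in the TBX4 group by its number, and the TBX4 counts are also given without it.

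Total counts per library ranged from 7365221 to 11743179, and a single gene, ENSG00000266658, took 10.7% to 53.5% of them, with both extremes in TBX groups. Values below are CPM, counts of a gene divided by the size of the library and put on the usual CPM scale, with library sizes scaled by TMM, a method meant to even out such differences in composition. Each transfected gene was high in its own group. TBX2 averaged 4468 ± 368 CPM (SD, n = 3) in the TBX2 libraries, TBX3 21905 ± 3874 CPM in the TBX3 libraries and TBX4 7976 ± 483 CPM in the TBX4 libraries. The human TBX5 row, on which a mouse transcript is only partly counted, reached 201 ± 62.4 CPM in the TBX5 libraries. The line's epithelial and mesenchymal markers were present (KRT8 19.3 to 52.7 CPM, KRT18 43.2 to 75.8, VIM 692 to 970), and all 3 lay below every control library in the TBX2 and TBX3 libraries. Leukocyte, endothelial, fibroblast and alveolar markers (PTPRC, CD3E, CDH5, COL1A1, COL3A1, DCN, SFTPC, SFTPB) had at most 9 counts in any library.

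Windows upstream of 6 members that were high with TBX3 and hold at least a pair of heat shock units, and of 2 abundant members that were not called higher, are shown first, because heat shock elements there are the known route from HSF1 to these genes. They come from the RefSeq promoter table on build GRCh38.p14 and end at the base before the annotated start. Each is the last 200 bases, read 5′ to 3′ on the gene's strand, and capitals mark matches to GAANNTTC or TTCNNGAA, a pair of adjoining units in opposite orientation. Both strings equal their own reverse complement, so 1 search covers both strands, and overlapping matches run together in capitals.

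The first 4 windows belong to HSPA1A (chr6:31815343-31815542, plus strand), HSPA1B (chr6:31827538-31827737, plus strand), DNAJB1 (chr19:14518398-14518597, minus strand) and HSPB1 (chr7:76302473-76302672, plus strand), 4 of the textbook inducible genes. HSPH1 and BAG3, the other 2, and DNAJB2 had no match and are not shown.
HSPA1A: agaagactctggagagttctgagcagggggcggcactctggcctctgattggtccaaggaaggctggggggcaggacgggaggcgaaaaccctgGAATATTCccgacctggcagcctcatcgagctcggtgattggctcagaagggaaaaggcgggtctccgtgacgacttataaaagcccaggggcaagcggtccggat
HSPA1B: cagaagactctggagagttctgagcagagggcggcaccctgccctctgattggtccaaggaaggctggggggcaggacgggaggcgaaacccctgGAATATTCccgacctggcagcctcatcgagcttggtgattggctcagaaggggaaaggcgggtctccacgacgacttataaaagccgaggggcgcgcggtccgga
DNAJB1: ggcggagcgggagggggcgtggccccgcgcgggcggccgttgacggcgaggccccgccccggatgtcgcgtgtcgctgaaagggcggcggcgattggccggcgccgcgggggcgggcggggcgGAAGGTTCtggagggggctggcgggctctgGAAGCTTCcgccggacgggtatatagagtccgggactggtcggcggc
HSPB1: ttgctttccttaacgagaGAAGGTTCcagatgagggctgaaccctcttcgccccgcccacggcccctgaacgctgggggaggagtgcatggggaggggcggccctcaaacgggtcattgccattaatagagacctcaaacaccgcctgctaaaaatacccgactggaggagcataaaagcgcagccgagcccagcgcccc

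The next 2, CHORDC1 (chr11:90223050-90223249, minus strand) and SERPINH1 (chr11:75562053-75562252, plus strand), are the windows of TBX3-high genes with a run of 3 units.
CHORDC1: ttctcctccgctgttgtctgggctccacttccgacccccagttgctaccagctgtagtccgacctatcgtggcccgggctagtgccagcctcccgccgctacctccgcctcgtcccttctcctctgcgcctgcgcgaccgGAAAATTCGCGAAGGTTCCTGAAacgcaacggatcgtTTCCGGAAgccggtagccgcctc
SERPINH1: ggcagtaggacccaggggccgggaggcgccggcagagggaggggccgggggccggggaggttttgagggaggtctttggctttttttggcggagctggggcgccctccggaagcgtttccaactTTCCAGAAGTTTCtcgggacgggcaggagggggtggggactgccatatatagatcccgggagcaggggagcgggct

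The last 2, HSPA8 (chr11:123062137-123062336, minus strand) and HSP90AA1 (chr14:102087045-102087244, minus strand), are shown as members with 3 units that were not called higher in TBX3 libraries than in controls.
HSPA8: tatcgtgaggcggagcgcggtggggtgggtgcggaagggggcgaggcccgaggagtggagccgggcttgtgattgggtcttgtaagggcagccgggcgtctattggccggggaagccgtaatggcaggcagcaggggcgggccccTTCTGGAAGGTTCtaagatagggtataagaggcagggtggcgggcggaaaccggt
HSP90AA1: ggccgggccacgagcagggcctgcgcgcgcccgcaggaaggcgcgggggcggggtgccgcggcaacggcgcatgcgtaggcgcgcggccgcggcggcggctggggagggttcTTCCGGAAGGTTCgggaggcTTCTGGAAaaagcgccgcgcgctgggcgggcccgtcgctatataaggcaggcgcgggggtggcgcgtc

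A pair of units was found between 250 bases before and 50 after the start in 20 of the 37 members in the table (54.1%), against 4417 of 27305 genes (16.2%). A run of 3 alternating units (GAANNTTCNNGAA or its reverse complement TTCNNGAANNTTC) was found in 8 of 37 members (21.6%), against 166 of 27305 genes (0.608%). The members with 3 units were CHORDC1, SERPINH1, HSPA8, HSP90AA1, HSP90AB1, HSPD1, DNAJA1 and DNAJB6. Among the members called higher with TBX3 that are in the table, 2 of 13 had 3 units and 8 of 13 had a pair, whereas 6 and 11 of the other 23 tested members did. HSPA13, HSPH1, DNAJB2, DNAJB5 and BAG3 were called higher with TBX3 and had no match in this window. A match is a run of letters and not a bound site. FKBP4, ST13, HSPA14, CRYAB and HSF1 were not in the table.

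In control cells the most abundant members were the constitutive HSP90AB1 and HSPA8 and the stress-responsive HSP90AA1. On a scale of CPM per kilobase of exon, which allows levels of different genes to be set side by side, HSP90AB1 stood at 471 ± 26.4 (SD, n = 6), HSPA8 at 418 ± 16.6 and HSP90AA1 at 376 ± 28.0. HSPA8 and HSP90AA1 overlapped at 1 SD, and HSP90AB1 lay above both beyond the SDs. The p23 co-chaperone gene PTGES3 (75.8 ± 6.88) and the mitochondrial chaperonin HSPD1 (71.4 ± 1.88) came next and overlapped within their SD. Of the inducible genes, HSPB1 stood at 32.7 ± 2.20 and HSPH1 at 15.1 ± 0.764. The other 4 were lower still, HSPA1A at 9.78 ± 1.01, HSPA1B at 8.59 ± 0.652, BAG3 at 8.76 ± 0.750 and DNAJB1 at 8.16 ± 0.115, a group whose neighbours did not differ beyond their SDs. HSPA1L and DNAJA4 were the lowest of those tested, at 0.346 ± 0.133 and 0.104 ± 0.0390. HSPA8 and HSPD1 have 17 and 18 numbered pseudogenes in the annotation, and HSPE1 and ST13 have 26 and 17, so their counts may be short of, or include, reads of near copies.

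HSF1, the master regulator, passed the threshold in no group at the level of its own transcript. It lay from 48.2 through a median of 51.8 to 54.5 CPM in the 6 controls. The TBX3 libraries gave 52.4, 49.0 and 43.9 CPM (libraries a, b and c, the order used throughout), and the other groups 53.6, 48.9 and 47.9 for TBX2, 45.6, 51.8 and 50.7 for TBX4 and 48.5, 52.6 and 54.2 for TBX5. All groups overlapped the controls, with log2 fold changes of -0.03 ± 0.07 (SE), -0.06 ± 0.06 and 0.00 ± 0.07 for TBX2, TBX4 and TBX5 (edgeR quasi-likelihood test, adjusted p from 0.644 to 0.989) and -0.09 ± 0.07 for TBX3. HSF2, a related factor, had log2 fold changes against controls from -0.07 with TBX2 to 0.16 with TBX3.

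HSPA1A and HSPA1B encode the main inducible HSP70. They are neighbouring copies on chromosome 6 (ENSG00000204389 at 31783320 to 31785723 and ENSG00000204388 at 31795515 to 31798031 on GRCh37, both on the plus strand), and their coding sequences in the reference annotation differ at 4 of 1926 bases, so the split of reads between them is uncertain. HSPA1A lay from 19.6 through a median of 23.8 to 25.9 CPM in the controls and at 136, 205 and 177 CPM in the TBX3 libraries. HSPA1B lay from 19.9 through a median of 21.3 to 24.2 CPM in the controls and at 122, 170.0 and 152 CPM with TBX3. All 3 TBX3 libraries stood far above every other library in both genes, with log2 fold changes against controls of 2.88 ± 0.09 (7.37-fold) and 2.78 ± 0.08 (6.86-fold). Per kilobase of exon HSPA1A then reached 71.8 ± 14.4, close to HSPD1 (68.3 ± 1.505) and a fraction of that of HSPA8 (439 ± 8.69).

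The same genes in the other TBX groups stayed near the control range. HSPA1A gave 28.0, 28.8 and 29.8 CPM with TBX4, 26.4, 19.9 and 19.8 with TBX2 and 23.9, 26.0 and 29.2 with TBX5. The 3 TBX4 libraries all lay just above the highest control and HSPA1A rose there by log2 0.30 ± 0.08 (1.23-fold, adjusted p = 0.0166), while TBX2 (-0.08 ± 0.10, adjusted p = 0.623) and TBX5 (0.15 ± 0.10, adjusted p = 0.379) overlapped the controls. HSPA1B gave 24.3, 26.9 and 23.3 CPM with TBX4, 18.7, 21.5 and 19.0 with TBX2 and 21.0, 21.2 and 25.7 with TBX5. Its TBX4 value narrowly passed the threshold of 0.1 (0.20 ± 0.08, adjusted p = 0.0999) with 1 library inside the control range, and it was lost under 12 alternative settings. With the counts of both copies summed as 1 gene, a choice made after the data were seen, TBX4 gave 0.25 (adjusted p = 0.0153), TBX2 -0.10 (adjusted p = 0.358) and TBX5 0.11 (adjusted p = 0.455). The summed pair gave 2.83 with TBX3, so the TBX4 call rests on a much smaller change. HSPA1L, a divergently transcribed neighbour on the minus strand better known from testis, had 10, 7 and 16 counts in Ctl, 5, 10 and 14 in EV and 14, 13 and 7 in TBX2 libraries, against 18, 16 and 29 with TBX3, 28, 26 and 20 with TBX4 and 22, 8 and 9 with TBX5. In CPM all 9 libraries of the latter 3 groups lay above every control, and HSPA1L rose by 1.09 ± 0.26 with TBX4 (adjusted p = 0.00842) and 1.05 ± 0.32 with TBX5 (adjusted p = 0.0446), near the 1.22 ± 0.27 of TBX3. Library TBX5 b, with 8 counts, cleared Ctl c only marginally (1.5874 against 1.5867 CPM).

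**Figure D1:**
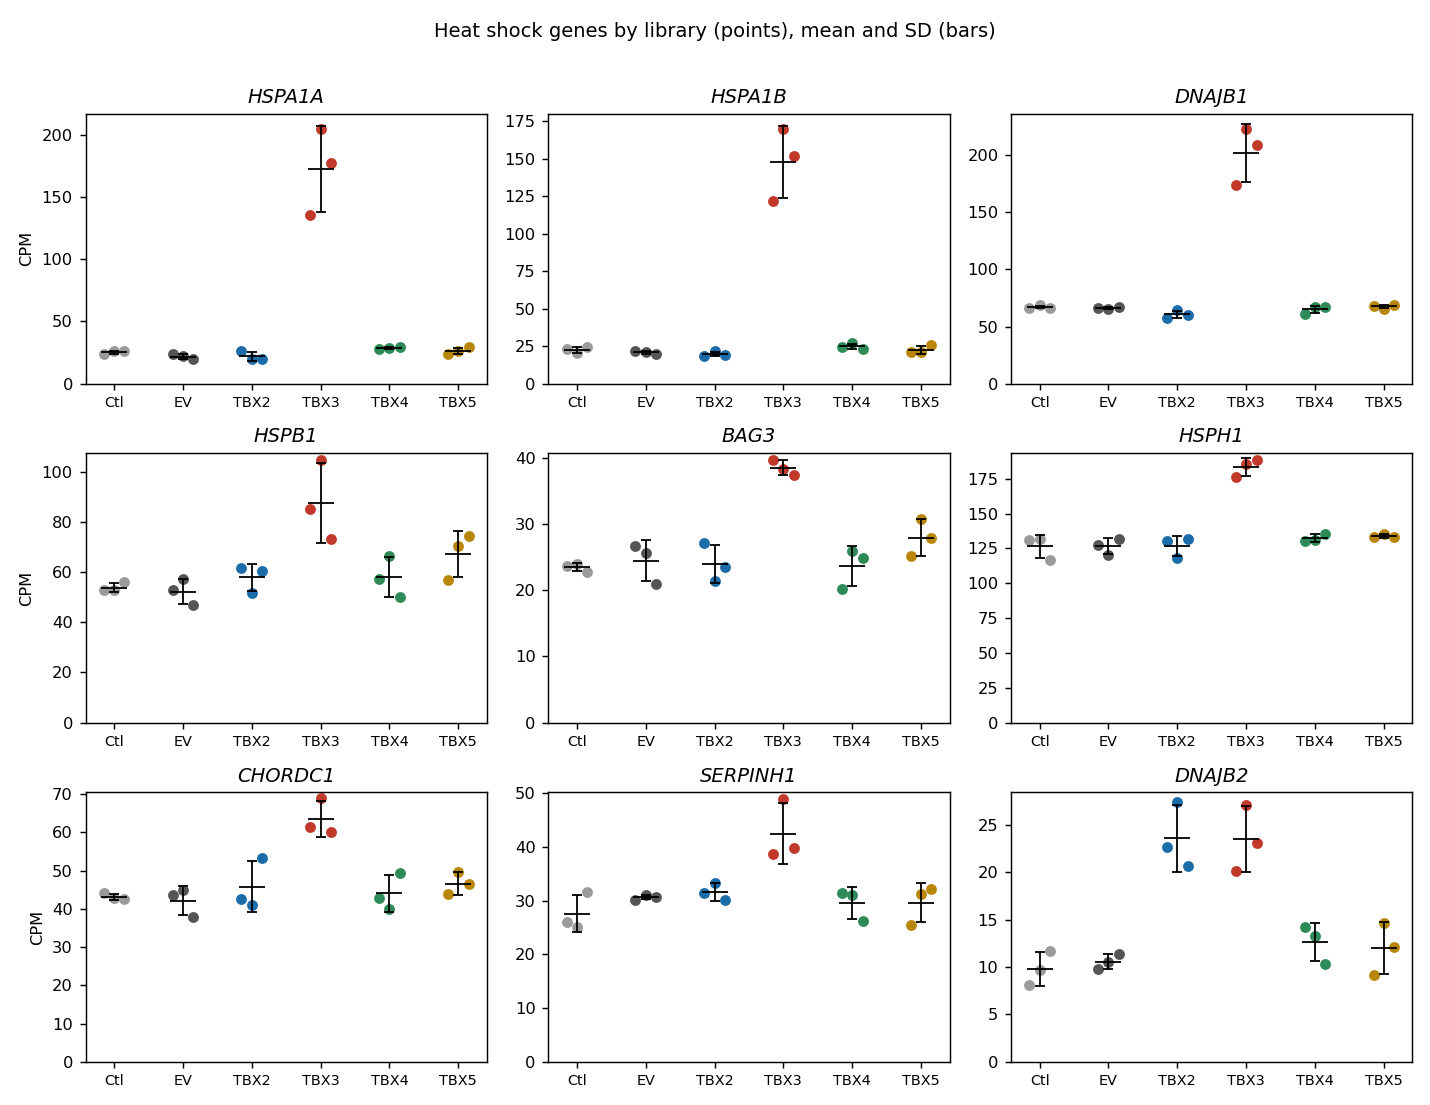
CPM on TMM-scaled library sizes (vertical axes, linear from 0) of 9 members in each library by group (horizontal axes: points are libraries, the bar is the mean and its whiskers 1 SD, n = 3). The red TBX3 points stand clear of all other groups in HSPA1A (136 to 205 CPM against at most 29.8 elsewhere) and DNAJB1, by less in BAG3, HSPH1, CHORDC1 and SERPINH1, and DNAJB2 is as high with TBX2 as with TBX3.

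Among the HSP40 partners, DNAJB1 (ENSG00000132002, chromosome 19, 14625581 to 14671203 on GRCh37), the one that works with the inducible HSP70, was the next to differ. The controls ran from 65.7 through a median of 66.6 to 68.5 CPM, the narrowest spread of any member named here in proportion to its level, and TBX3 gave 174, 223 and 209 CPM. TBX4 (61.3, 66.9 and 67.1) and TBX5 (67.9, 65.7 and 69.0) overlapped the controls. DNAJB1 was 3.02-fold higher with TBX3 (1.60 ± 0.06). With TBX2 it gave 57.8, 64.1 and 59.9 CPM, all below the lowest control, and fell by 0.14 on the log2 scale (adjusted p = 0.0922), a call that held in 5 of 19 alternative settings. DNAJB5 gave 9.89 to 11.2 CPM in controls and 13.0, 12.5 and 11.9 with TBX3, a log2 fold change of 0.26 ± 0.10, and passed in no other group.

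DNAJB2, a brain-enriched HSP40 that hands clients to the proteasome, followed a different pattern. The controls ran from 8.14 through a median of 10.2 to 11.7 CPM. TBX3 gave 20.2, 27.2 and 23.1 CPM and TBX2 22.6, 27.5 and 20.6, both wholly above the controls, while TBX4 (14.2, 13.3 and 10.4) and TBX5 (9.21, 14.7 and 12.1) straddled the upper end. DNAJB2 rose with TBX2 by 1.22 ± 0.11 (2.32-fold, adjusted p = 2.06e-08), as much as its 1.19 ± 0.11 with TBX3, and the TBX3 minus TBX2 difference was -0.03 ± 0.13. With TBX4 it rose by 0.30 ± 0.11 (adjusted p = 0.0956), a call lost under 11 alternatives. With TBX5 the value was 0.17 ± 0.14 (adjusted p = 0.520).

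DNAJB4, a close relative of DNAJB1, shared this wider pattern at a smaller size. It lay from 11.4 through a median of 12.6 to 13.7 CPM in controls, at 14.5, 17.5 and 18.3 CPM with TBX2 and at 15.3, 17.7 and 15.5 with TBX3. The libraries with TBX4 (15.7, 15.6 and 13.1) and TBX5 (13.6, 15.5 and 14.9) overlapped the controls in 1 library each. It rose with TBX2 by 0.41 ± 0.10 (adjusted p = 0.00335) and with TBX4 by 0.24 ± 0.09 (adjusted p = 0.0993, lost under 14 alternatives), beside 0.35 ± 0.09 with TBX3. DNAJB6, which keeps aggregation-prone proteins soluble, moved the other way. It lay from 125 through a median of 128 to 145 CPM in controls, and TBX2 gave 92.1, 106 and 111 CPM and TBX4 115, 115 and 116, all below them. TBX3 (123, 145 and 134) and TBX5 (117, 126 and 124) reached into the control range. DNAJB6 fell with TBX2 (-0.35 ± 0.07, adjusted p = 4.80e-04) and with TBX4 (-0.19 ± 0.06, adjusted p = 0.0333), the latter becoming 0.08 when libraries were scaled by their totals, a scaling that moved the median of all tested genes in that comparison to 0.25. DNAJA3, the mitochondrial HSP40, fell with TBX4 (-0.18 ± 0.07, adjusted p = 0.0978) and TBX5 (-0.34 ± 0.08, adjusted p = 0.00908), beside -0.24 ± 0.07 with TBX3. DNAJA1, DNAJA2 and DNAJA4 passed in no comparison against controls.

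BAG3 (ENSG00000151929, chromosome 10, 121410892 to 121437331) couples HSP70 to small heat shock proteins and autophagy. It lay from 20.9 through a median of 23.8 to 26.7 CPM in controls and at 39.7, 38.3 and 37.5 CPM with TBX3, wholly above all other libraries. TBX2 (27.1, 21.3 and 23.5), TBX4 (20.3, 26.0 and 24.8) and TBX5 (25.2, 30.8 and 27.9) each overlapped the controls. The log2 fold change was 0.69 ± 0.07 with TBX3, against 0.01 ± 0.09, -0.01 ± 0.08 and 0.21 ± 0.09 with TBX2, TBX4 and TBX5 (adjusted p = 0.960, 0.961 and 0.163). Of the other BAG genes, BAG1 passed nowhere, BAG2 fell with TBX2 (-0.21 ± 0.08, adjusted p = 0.0462, with 44.2% of its exon bases shared with other genes), and BAG5 fell with TBX4 (-0.18 ± 0.06, adjusted p = 0.0628).

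HSPB1 (HSP27), the small heat shock protein that holds unfolded chains for HSP70, lay from 46.8 through a median of 52.7 to 57.1 CPM in controls. It gave 84.9, 104 and 73.0 CPM with TBX3 and 56.8, 70.4 and 74.4 with TBX5, where 1 TBX3 library lay below 1 TBX5 library. TBX2 (61.6, 51.8 and 60.2) and TBX4 (57.3, 66.3 and 50.2) overlapped the controls. HSPB1 rose with TBX5 by 0.33 ± 0.08 (1.26-fold, adjusted p = 0.0125), beside 0.71 ± 0.08 (1.64-fold) with TBX3. HSPH1, the inducible HSP110 that recharges HSP70, lay from 117 through a median of 129 to 132 CPM in controls and at 176, 186 and 188 CPM with TBX3. TBX2 (130.4, 118 and 131) and TBX4 (131, 131 and 136) overlapped the controls, and TBX5 (133, 136 and 133) lay just above the highest of them. Its log2 fold change was 0.54 ± 0.06 with TBX3, and 0.06 and 0.08 with TBX4 and TBX5 (adjusted p = 0.566 and 0.455). HSPA4 and HSPA4L, the other HSP110 genes, passed in no group against controls.

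CHORDC1, a co-chaperone that binds HSP90, and SERPINH1 (HSP47), the collagen chaperone of the endoplasmic reticulum, are classical heat-inducible genes outside the HSP70 system. CHORDC1 lay from 37.78 through a median of 43.2 to 45.0 CPM in controls and at 61.3, 68.9 and 60.2 CPM with TBX3. The next highest library was TBX2 c (42.7, 41.2 and 53.4 CPM in TBX2), and TBX4 (42.8, 40.01 and 49.4) and TBX5 (43.8, 49.6 and 46.5) overlapped the controls. SERPINH1 lay from 25.1 through a median of 30.4 to 31.5 CPM in controls and at 38.7, 48.9 and 39.8 CPM with TBX3. Its values with TBX2 (31.5, 33.3 and 30.0), TBX4 (31.4, 31.1 and 26.2) and TBX5 (25.4, 31.2 and 32.2) overlapped the controls. The log2 fold changes with TBX3 were 0.57 ± 0.07 and 0.53 ± 0.08, and no other group passed for either gene, with adjusted p = 0.436, 0.769 and 0.333 for CHORDC1 and 0.290, 0.916 and 0.999 for SERPINH1 with TBX2, TBX4 and TBX5. The peptidyl-prolyl isomerase gene FKBP4, another partner of HSP90, ran from 81.5 to 97.5 CPM in controls and gave 95.1, 103 and 103 with TBX3 (0.17 ± 0.06), overlapping 1 control. AHSA1, PTGES3 and ST13 passed against controls in no group.

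The abundant members, among them the stress-responsive HSP90AA1, did not follow the inducible genes described above. HSPA8, the housekeeping HSP70, lay from 1872 through a median of 2052 to 2090.5 CPM in controls and at 2108, 2176 and 2098 CPM with TBX3, just above the highest control, a log2 fold change of 0.07 ± 0.06. TBX2 gave 1585, 1674 and 1527 CPM, all below the controls, and HSPA8 fell there (-0.35 ± 0.07, adjusted p = 7.16e-04). TBX4 (1888, 1843 and 1796) and TBX5 (1756, 1839.8 and 1903) reached from the lower end of the controls downwards, at -0.14 ± 0.06 and -0.15 ± 0.06 (adjusted p = 0.140 and 0.153). HSP90AA1, the stress-responsive cytosolic HSP90, lay from 1654 through a median of 1932 to 2054 CPM in controls, at 2042, 2105 and 1732 CPM with TBX3 (0.03 ± 0.08) and at 1496, 1334 and 1987 with TBX2, where it fell (-0.26 ± 0.10, adjusted p = 0.058) although library TBX2 c stood inside the control range. TBX4 gave 1495, 1684 and 1866 and TBX5 2063, 1955 and 1998. Its constitutive twin HSP90AB1 fell with TBX2 (-0.33 ± 0.08, adjusted p = 0.00356) and TBX5 (-0.20 ± 0.07, adjusted p = 0.0889).

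The mitochondrial chaperonin genes were not called with TBX3 either. HSPD1 (HSP60) lay from 524 through a median of 548 to 559 CPM in controls and at 510.4, 533 and 519 CPM with TBX3 (-0.07 ± 0.06). It gave 434, 505 and 514 with TBX2, 529, 538 and 518 with TBX4 and 465, 526 and 501 with TBX5, and fell with TBX2 (-0.17 ± 0.06, adjusted p = 0.0558). HSPE1 (HSP10), its lid, lay from 13.7 through a median of 18.2 to 22.2 CPM in controls, and its TBX2 (16.5, 15.7 and 18.5), TBX3 (14.8, 19.0 and 18.3), TBX4 (20.5, 20.1 and 18.5) and TBX5 (24.9, 13.9 and 15.4) libraries all reached into that range. HSPA9 (mortalin) fell with TBX5 (-0.24 ± 0.06, adjusted p = 0.0184). TRAP1, the mitochondrial HSP90, was the member that was lower in every TBX group. It lay from 35.4 through a median of 37.6 to 40.5 CPM in controls, at 28.9, 31.3 and 26.1 CPM with TBX2, 31.7, 29.4 and 28.3 with TBX3, 31.7, 33.0 and 31.0 with TBX4 and 28.6, 32.5 and 29.2 with TBX5, so all 12 TBX libraries lay below all 6 controls. TRAP1 fell with TBX2 (-0.37 ± 0.07, adjusted p = 5.83e-04), TBX5 (-0.33 ± 0.07, adjusted p = 0.00683) and TBX4 (-0.24 ± 0.06, adjusted p = 0.0165), the last being 0.02 on library totals, beside -0.34 ± 0.07 with TBX3. Of its exon bases 41.9% overlap other genes, and the counting used no strand.

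HSPA13, a microsomal HSP70 relative, was the mirror image. It lay from 37.03 through a median of 39.5 to 42.1 CPM in controls and at 47.8, 51.0 and 53.6 CPM with TBX2, 45.3, 48.7 and 55.4 with TBX3, 50.1, 43.0 and 46.7 with TBX4 and 50.3, 51.2 and 50.4 with TBX5. All 12 TBX libraries lay above the controls, and it rose with TBX2 (0.36 ± 0.07, adjusted p = 2.61e-04), TBX4 (0.23 ± 0.06, adjusted p = 0.0183) and TBX5 (0.35 ± 0.06, adjusted p = 0.00115), beside 0.35 ± 0.07 with TBX3. HSPA2, an HSP70 best known from testis, lay from 10.4 through a median of 11.4 to 12.1 CPM in controls and gave 13.6, 15.1 and 16.2 CPM with TBX5, where it rose (0.38 ± 0.11, adjusted p = 0.0261). The TBX2 (10.9, 14.9 and 10.7) and TBX4 (11.4, 14.7 and 13.7) libraries overlapped the controls and the TBX3 libraries (13.0, 14.9 and 12.9) lay above them at 0.25 ± 0.10. HSPA14, a ribosome-associated HSP70, rose with TBX4 (0.21 ± 0.07, adjusted p = 0.0854), though EV exceeded Ctl by a like 0.23 ± 0.08.

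**Figure D2:**
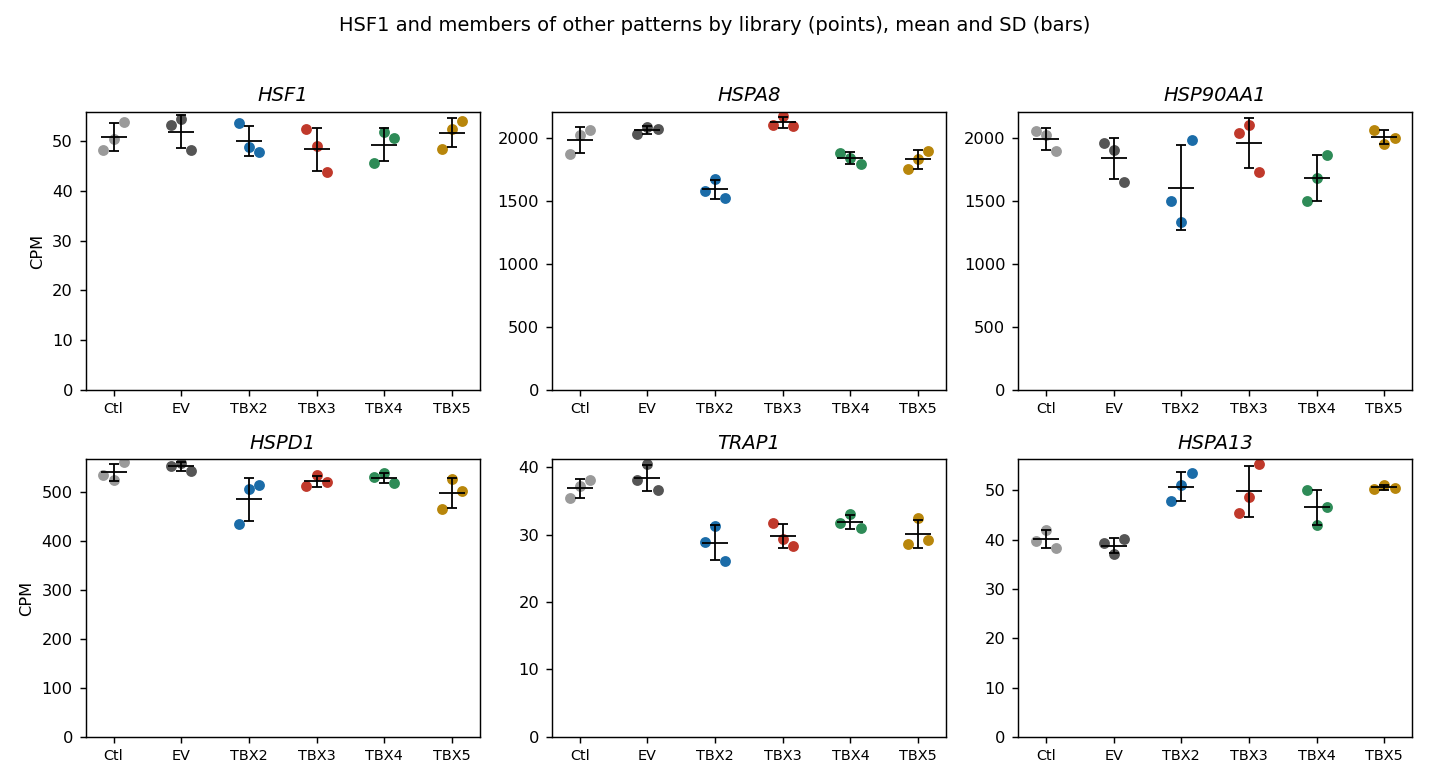
CPM (vertical axes, linear from 0) of HSF1, HSPA8, HSP90AA1, HSPD1, TRAP1 and HSPA13 in each library by group (points are libraries, bars the mean and 1 SD, n = 3). HSF1 is level at 43.9 to 54.5 CPM, HSPA8 is lowest with TBX2, TRAP1 is below the controls in all 4 TBX groups (with TBX4 not on library totals) and HSPA13 above them.

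Counted over the 40 tested members, TBX3 against the 6 controls gave 14 higher and 2 lower at an adjusted p under 0.1, where 8.47% and 6.40% of all tested genes were called, and the median log2 fold change of the members was 0.08. This is the comparison the choice had in view, and nothing is read from its count. TBX4 gave 7 higher and 4 lower, against 6.97% and 6.07% of all genes (median -0.04), and without library 4c 7 and 3. TBX5 gave 4 and 4, against 6.55% and 6.12% (median -0.01). TBX2 gave 3 higher and 10 lower, against 17.0% and 15.6% (median -0.06), so 25.0% of members fell with TBX2 and 7.5% rose. The TBX4 count of 7 was 3 with DESeq2, at a threshold of 0.05 or with Ctl controls alone. All of these comparisons share the 6 control libraries.

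Without a model, 18 members had all 3 TBX3 libraries beyond the 6 controls (15 above, 3 below, with 14.5% of all tested genes beyond in either direction). For TBX2 the count was 9 (3 above, 6 below, 24.5% of all genes), for TBX4 7 (3 above, 4 below, 12.6%) and for TBX5 7 (4 above, 3 below, 14.0%). The shares of members were 22.5% for TBX2, near its background, and 17.5% each for TBX4 and TBX5.

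By pattern, 12 members (HSPA4, HSPA4L, HSPE1, DNAJA1, DNAJA2, DNAJA4, BAG1, HSF1, HSF2, AHSA1, PTGES3 and ST13) passed against controls in no TBX group and 28 of 40 passed in at least 1, where 44.3% of all tested genes did. Of the 14 higher with TBX3, 7 passed as higher in no other TBX group (among all tested genes 3.25% did, or 38.4% of the 1319 higher with TBX3): HSPH1, DNAJB1, DNAJB5, BAG3, CHORDC1, FKBP4 and SERPINH1. The other 7 were HSPA1A, HSPA1B and HSPB1, which passed elsewhere at a smaller size, and HSPA1L, HSPA13, DNAJB2 and DNAJB4, whose values in at least 1 other group came near those of TBX3. With TBX2 the 6 members that fell there and passed in no other TBX group were HSPA8, HSP90AA1, HSPD1, BAG2 and the HSP90 co-chaperones STIP1 (-0.22 ± 0.06, adjusted p = 0.0104) and CDC37 (-0.35 ± 0.11, adjusted p = 0.0223). The share of all tested genes with this pattern was not counted, and 15.6% of them were lower with TBX2, so nothing is read from the 6. Passing in one group and not in another is not a difference between groups, which the direct comparisons below address.

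**Figure D3:**
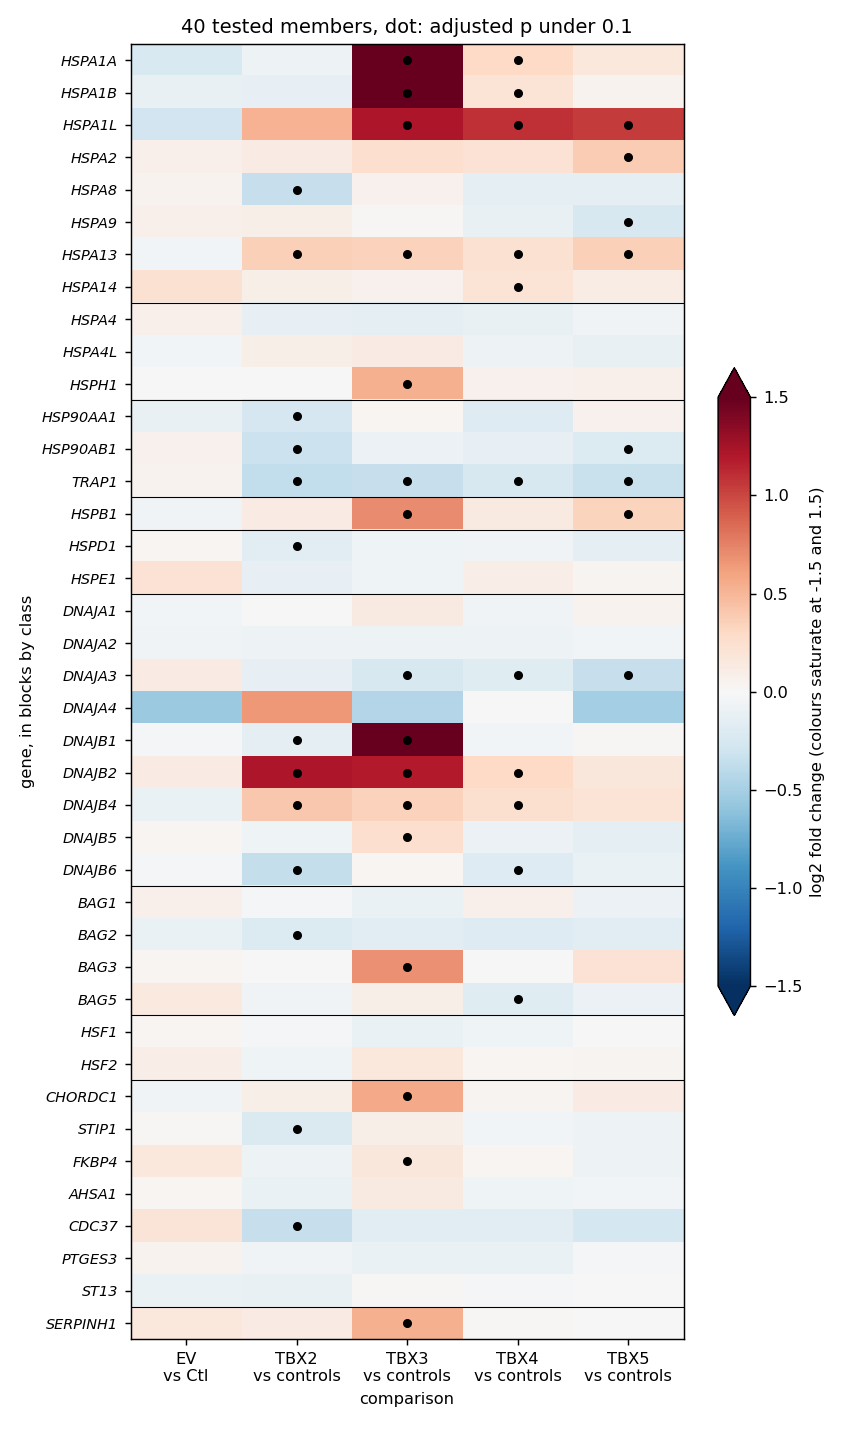
Log2 fold change (colour, red higher and blue lower, saturating at 1.5 in either direction) of the 40 tested members (vertical axis, in blocks by class) in EV against Ctl and each TBX group against the 6 controls (horizontal axis), with a dot where the adjusted p was under 0.1. The TBX3 column holds 14 red and 2 blue dots, the TBX2 column 3 and 10 and the EV column none, and the TBX4 dots of TRAP1 and DNAJB6 turn positive on library totals.

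Between the EV and the Ctl libraries no member passed the threshold, and few of all tested genes did. What the Ctl cells received is not given, so this comparison does not isolate an effect of the vector. EV against Ctl gave 0 calls of 40 (0.385% of all tested genes were called either way), 0 with DESeq2 as well, and 5 with an unadjusted p under 0.05. Those 5 were HSPA14, BAG5, FKBP4 and CDC37, higher in EV, and HSPA1A, lower in EV (-0.23 ± 0.09, adjusted p = 0.431). HSPA1B (-0.11 ± 0.09), DNAJB1 (-0.02 ± 0.06) and HSPB1 (-0.05 ± 0.07) gave values no higher in EV than in Ctl. Leaving out library Ctl c gave 1 call.

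Set directly against the other TBX groups in 1 fit of all 18 libraries, TBX3 had 17 members higher than TBX2 and 0 lower (7.51% and 8.01% of all tested genes), 13 higher than TBX4 and 0 lower (5.95% and 4.02%), and 14 higher than TBX5 and 0 lower (4.30% and 3.11%). At an unadjusted p under 0.05, and with DESeq2, the lower counts were also 0. The controls do not enter these differences, but the TBX3 libraries are those that the choice had in view, so the counts are not independent evidence of their direction. Without library 4c the TBX4 count was 10.

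Higher than in each of the other TBX groups were 10 members: HSPA1A, HSPA1B, HSPA8, HSPH1, HSPB1, DNAJB1, DNAJB5, BAG3, CHORDC1 and SERPINH1. How many of all tested genes were higher in this way was not counted. Nothing is therefore read from the number of members, and their differences are given as a description. HSPA1A exceeded TBX2 by log2 2.96 ± 0.12, TBX4 by 2.58 ± 0.11 and TBX5 by 2.72 ± 0.12. For DNAJB1 the differences were 1.73 ± 0.08, 1.63 ± 0.07 and 1.58 ± 0.08. The remaining inducible genes differed less: BAG3 by 0.48 to 0.70, HSPB1 by 0.38 to 0.58, SERPINH1 by 0.41 to 0.53, CHORDC1 by 0.45 to 0.52, HSPH1 by 0.45 to 0.54 and DNAJB5 by 0.32 to 0.40. HSPA8 stood 0.21 above both TBX4 and TBX5 and 0.42 ± 0.07 above TBX2, although it was not called against controls in TBX3. Its calls against TBX4 and TBX5 each held in only 6 of 14 alternatives, and its difference from TBX4 became -0.14 on library totals, where the median of all tested genes was -0.34. Among the other members, DNAJB2 was higher than in TBX4 (0.88 ± 0.14) and TBX5 (1.01 ± 0.16) but not TBX2, while HSPA13, DNAJB4 and HSPA1L were called different from no other TBX group.

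**Figure D4:**
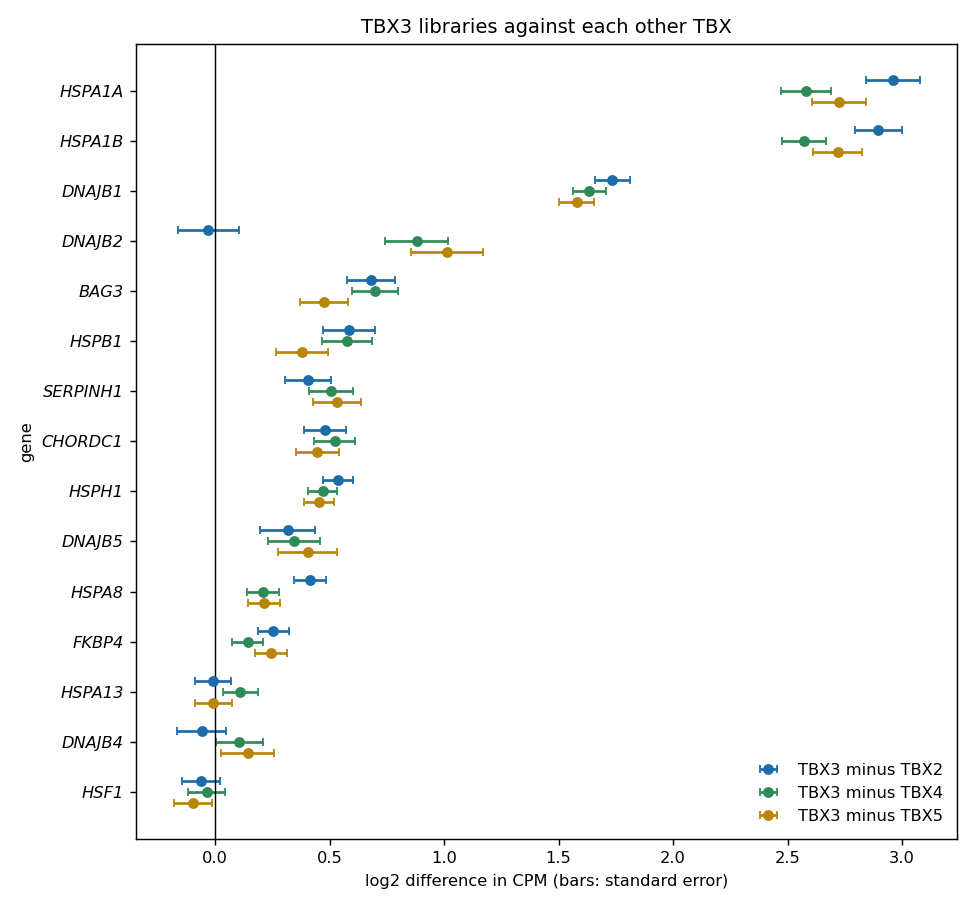
Log2 difference of the TBX3 libraries from TBX2 (blue), TBX4 (green) and TBX5 (ochre) on the horizontal axis for 15 members (vertical axis), with standard errors as bars and a line at 0. HSPA1A, HSPA1B and DNAJB1 stand apart at 1.58 to 2.96, DNAJB2 differs from TBX4 and TBX5 and not from TBX2, and HSPA13 and HSF1 lie around 0.

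Among the groups without TBX3, differences were few. TBX2 against TBX4 gave 4 calls (1 higher, 3 lower, 12.3% of all genes either way), DNAJB2 higher (0.91 ± 0.14, adjusted p = 5.47e-05) and HSPA1A, HSPA1B and HSPA8 lower in TBX2. TBX2 against TBX5 gave 5 (2 higher, 3 lower, 12.1%), DNAJB2 (1.04 ± 0.16, adjusted p = 4.13e-05) and HSPA9 (0.32 ± 0.08) higher and HSPA8, HSP90AA1 and DNAJB6 lower. TBX5 against TBX4 gave 0 (0.539% of all genes), 0 with DESeq2, and 1 with an unadjusted p under 0.05, HSP90AA1. The counts with TBX2 lie close to or under the background.

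Ratios of counts within a library need no scaling between libraries. HSPA1A and HSPA1B together made 2.23% ± 0.222 of the HSPA8 count in the controls (SD, n = 6, range 1.90% to 2.50%) and 12.2%, 17.2% and 15.7% in the TBX3 libraries. TBX4 averaged 2.92% ± 0.131, TBX5 2.67% ± 0.188 and TBX2 2.62% ± 0.198. The TBX4 and TBX5 libraries all lay above the highest control (two-sided exact permutation p = 0.0238 each, the smallest that 3 against 6 libraries allow, 0.119 after adjustment over 15 ratio tests), and TBX2 overlapped it (exact p = 0.0476, adjusted 0.143). DNAJB1 made 58.9% ± 3.84 of the DNAJA1 count in controls and 142%, 168% and 175% with TBX3, against 53.7% ± 5.79, 59.2% ± 3.63 and 57.3% ± 2.92 with TBX2, TBX4 and TBX5. HSPA1A over HSPA1B was 109% ± 10.5 in controls and 116% ± 4.61 with TBX3, so both copies were counted in nearly the same proportion before and after. DNAJB2 made 7.76% of the DNAJB6 count in controls and 23.04%, 17.5%, 10.9% and 9.74% with TBX2, TBX3, TBX4 and TBX5. A ratio also moves with its denominator, and with TBX2 both HSPA8 and DNAJB6 fell by 0.35 on the log2 scale. DNAJB2 itself averaged 23.6 CPM with TBX2 and 23.5 with TBX3, and the summed HSPA1A and HSPA1B gave -0.10 with TBX2.

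**Figure D5:**
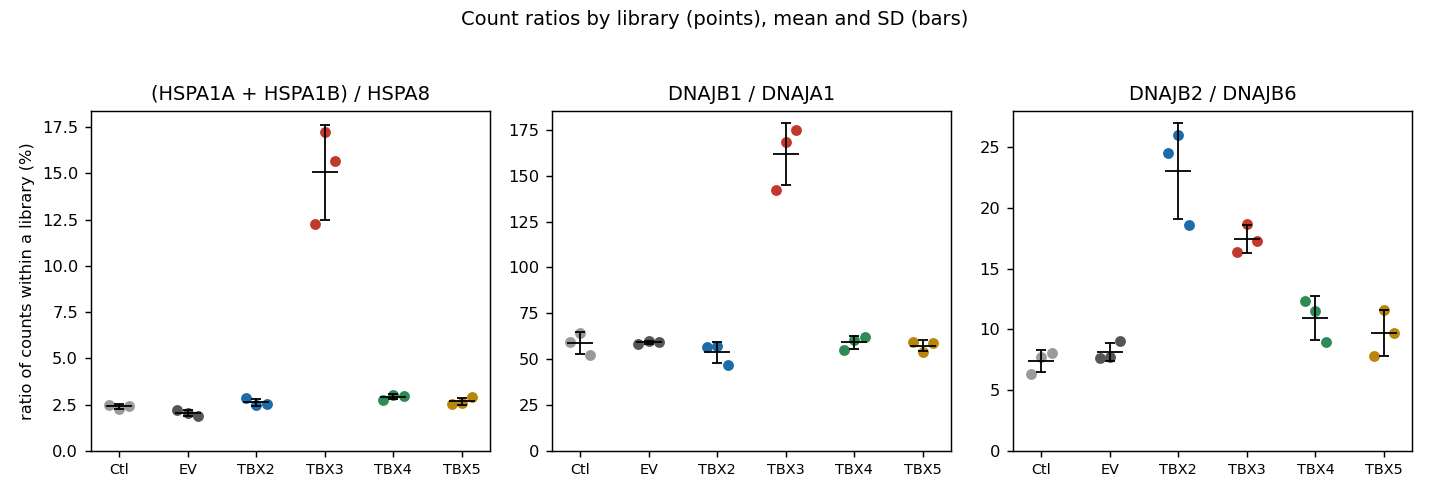
Ratio of counts within each library in percent (vertical axes, linear from 0) by group: HSPA1A and HSPA1B over HSPA8, DNAJB1 over DNAJA1 and DNAJB2 over DNAJB6 (points are libraries, bars the mean and 1 SD, n = 3). The first ratio is 12.2% to 17.2% with TBX3 and at most 3.02% elsewhere. The third is highest with TBX2, where its denominator DNAJB6 was lower than in controls.

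Several properties of the libraries can be set beside the TBX3 values. The TBX3 transcript, at 21905 ± 3874 CPM, was higher than those of TBX2 and TBX4 in their own libraries (the mouse Tbx5 transcript cannot be ranked from the human row), with 17745, 25411 and 22559 CPM in libraries a, b and c. Library a was also the lowest of the 3 in HSPA1A, HSPA1B, DNAJB1, HSPH1, SERPINH1 and DNAJB2. It was the highest in BAG3, and library c was the lowest in HSPB1 and CHORDC1, so the order of libraries was not shared by all these genes. TBX3 and Tbx5 were carried by the same vector type, and the Tbx5 libraries lacked the higher HSPA1A. The part of transgene level, vector type or transfection in these values was not tested, and TBX3 as a factor and the level of its transcript cannot be told apart in this design. The share of counts taken by the most counted gene was 10.7% in TBX3 c and 47.4% in TBX3 b, and HSPA1A was 177 and 205 CPM in these libraries.

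Other chaperone genes were counted for comparison, from a list of 76 written beside the members, of which 67 were tested. With TBX3 8 were higher and 6 lower against controls, with TBX2 15 and 14, with TBX4 7 and 3 and with TBX5 8 and 5, beside 8.47% and 6.40%, 17.0% and 15.6%, 6.97% and 6.07%, and 6.55% and 6.12% of all tested genes in the same order. The endoplasmic reticulum chaperone HSPA5 (BiP) rose with TBX2 (log2 1.00 ± 0.13, adjusted p = 6.28e-06) and with TBX5 (0.33 ± 0.10, adjusted p = 0.0467), beside 0.27 ± 0.09 with TBX3 and the same 0.27 in EV against Ctl. Of 9 tested chaperones of that compartment, 5 were higher with TBX2 (17.0% of all genes), 5 with TBX4 (6.97%), 4 with TBX5 (6.55%) and 2 with TBX3 (8.47%). Of the 8 subunits of the cytosolic chaperonin CCT, which folds actin and tubulin, 7 were lower with TBX2 (15.6% of all genes were, CCT4 -0.32 ± 0.06, adjusted p = 0.000283), 3 with TBX3 (6.40%), 1 with TBX4 (6.07%) and 4 with TBX5 (6.12%). Against TBX5, TBX3 had 0 of the 67 higher and 5 lower, and 14 of the 40 members higher. Of all tested genes 4.30% were higher and 3.11% lower in that comparison. The question put to the members came from their TBX3 values, so these counts do not set the lists on equal terms.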

How the data were processed

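The authors aligned paired reads to GRCh37 with STAR 2.3.0, counted them per gene with featureCounts 1.5.4 at default settings, which use no strand, and deposited raw counts in 1 table of 18 libraries. Symbols and coordinates were matched to the Ensembl identifiers with the GENCODE annotation lifted to GRCh37, and promoter windows came from RefSeq. A gene was tested if it exceeded 5 counts in 10 or more libraries. Tests used the quasi-likelihood test of edgeR 4.0.16 (R 4.3.3) on TMM-scaled library sizes, with Benjamini-Hochberg adjustment over all 15576 tested genes and a threshold of 0.1. Each TBX group was fitted with the 6 pooled controls, EV with Ctl, and differences between TBX groups in 1 fit of all libraries. Standard errors were derived from the log2 fold change and the F statistic of each gene, and DESeq2 1.42.0 was an alternative. The fits were tested on simulated data, in which 200 of the better counted genes were changed by log2 1 up or down. All genes were given the same fixed spread, and the smaller changes of most members called here were not simulated. Of the 200 genes, 99% were recovered for TBX3 against controls and 96.5% for TBX3 against TBX5 (15385 genes each), and 11.6% and 6.31% of the calls were false. For EV against Ctl they were 97.5% and 12.2%, so the false share of 2 of these comparisons was above the threshold of 10%. Ratios were compared with exact permutation tests (SciPy). An interval or floor covers counting error only, and 3 counts, the most that a count of 0 allows, are 0.256 to 0.407 CPM of unscaled totals. Per-library values are given for 11 core members fixed by name and for the 15 members with the largest absolute log2 fold change among those called (20 genes in all). The members, the lists and the question were chosen with earlier results of these data known.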

Additional observations from a re-analysis of the deposited data

Results flagged for a closer look

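In the 6 control libraries, HSPA8 in Ctl a (1872 CPM, with the other controls from 2028 to 2090.5) and CHORDC1 in EV c (37.78 CPM, with the others from 42.6 to 45.0) stood apart from the rest by Dixon's criterion at the 95% level. Chance sets apart about 1 in 20 groups by this criterion, and 20 members were examined.

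The 20 members with per-library values were examined for a difference between the TBX3 and the TBX5 libraries, both transfected with pCGN plasmids. In 10 of them the log2 difference passed the edgeR test of the difference itself. Over all 40 tested members 14 were higher in TBX3 and 0 lower, where 4.30% and 3.11% of all tested genes were. TBX3 minus TBX5 was 2.72 for HSPA1A, 2.72 for HSPA1B, 1.58 for DNAJB1, 1.01 for DNAJB2, 0.53 for SERPINH1, 0.48 for BAG3, 0.45 for HSPH1, 0.45 for CHORDC1, 0.38 for HSPB1 and 0.21 for HSPA8. All 3 TBX3 libraries lay above all 3 TBX5 libraries in each of these genes except HSPB1. The TBX3 libraries are those that the choice of genes had in view, so these differences are not independent of it.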

How the results depend on the processing

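Of 67 called gene values, 48 kept direction and call in every alternative but scaling by library totals, and over 1115 recomputed values 972 were unchanged, 139 lost the call and 4 reversed. Library totals, in which the gene taking 10.7% to 53.5% of counts is not balanced, gave 42 of the lost calls and all reversals: TRAP1 0.023 and DNAJB6 0.077 with TBX4 against controls, HSPA8 -0.14 and DNAJB6 -0.13 for TBX3 against TBX4. That scaling put the median log2 fold change of all tested genes at 0.25 (TBX4), -0.31 (TBX5), 0.20 (EV against Ctl) and -0.57 (TBX5 against TBX4). It left 1 member higher and 0 lower with TBX2, 4 and 0 with TBX3, 0 lower with TBX4 and 0 and 0 with TBX5, 3 higher in TBX3 than TBX2, 3 than TBX4 and 4 than TBX5, 0 for TBX2 against TBX4, 1 for TBX2 against TBX5, and 24 for TBX5 against TBX4. The share of all tested genes called under this scaling was not counted. These counts, the 24 among them, are therefore not read as results about the members. HSPA1A, HSPA1B and DNAJB1 were called for TBX3 in all 19 alternatives against controls and all 14 against each other TBX group, and HSPH1, BAG3, HSPB1, CHORDC1 and SERPINH1 were lost against controls with library totals only. The alternatives reuse the TBX3 libraries that the choice had in view. They describe how the calls depend on processing and are not independent evidence for them.

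EV controls alone gave 6 lower with TBX2, 4 lower with TBX3 and 4 higher with TBX4, and Ctl controls alone 1 lower with TBX3, 3 higher with TBX4 and 2 lower with TBX5. A threshold of 0.05 left 3 higher and 2 lower with TBX4, 9 higher in TBX3 than TBX5, 1 for TBX2 against TBX4 and 3 for TBX2 against TBX5. With TBX4, DESeq2 gave 3 higher, no filter 4, and 1 fit of all libraries 4 higher and 2 lower. A separate fit of TBX2 and TBX5 gave 2 calls. The letters a, b and c did not pair the libraries (correlation of deviations from group means as low as -0.14 within a letter), and a replicate block gave 3 higher and 2 lower with TBX4 and moved no other count by over 1.5 times.

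Leaving out 1 library at a time gave 5 to 13 lower with TBX2 (5 without TBX2 a), 1 to 4 lower with TBX3 (1 without TBX3 a, 4 without Ctl a), 3 to 7 higher with TBX4 (3 without Ctl b, TBX4 a or TBX4 b, 4 without Ctl a, EV a or EV b), 1 to 5 lower with TBX4 (1 without TBX4 b, 2 without EV a), 2 to 4 higher with TBX5 (2 without TBX5 c), 0 to 1 for EV against Ctl (1 without Ctl c), 0 to 1 lower in TBX3 than TBX2 (1 without TBX3 c), 8 to 12 higher in TBX3 than TBX5 (8 without TBX3 b, 9 without TBX5 a), 1 to 7 for TBX2 against TBX4 (7 without TBX2 b, 1 without TBX2 c or TBX4 b, 2 without TBX4 a) and 2 to 5 for TBX2 against TBX5 (2 without TBX2 a or TBX5 b, 3 without TBX5 c). Against controls the standard error was 0.26 to 0.32 for HSPA1L and 0.38 to 0.51 for DNAJA4, both near 1 CPM, and 0.08 to 0.10 for HSPA1A.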

Other observations

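Outside the heat shock families, several chaperones of other compartments moved with TBX factors other than TBX3. DNAJB9, an HSP40 of the endoplasmic reticulum, rose with TBX2 (log2 fold change against controls 0.86 ± 0.15 (SE), adjusted p = 0.00017 in edgeR), and also passed the test with TBX4 (0.42 ± 0.14, adjusted p = 0.0697 in edgeR) and TBX5 (0.47 ± 0.17, adjusted p = 0.0967 in edgeR). HSP90B1, the HSP90 of the endoplasmic reticulum, was lower in TBX3 than in TBX5 libraries by a log2 difference of -0.35 ± 0.07 (adjusted p = 0.0026 in edgeR), and EV libraries exceeded Ctl libraries (0.27 ± 0.06, adjusted p = 0.0733 in edgeR). HSPA12A, a distant HSP70 relative, rose with TBX5 (0.98 ± 0.25, adjusted p = 0.0151 in edgeR) from a control level of 1.31 ± 0.18 CPM (SD, n = 6).

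GRPEL2, a nucleotide exchange factor of the mitochondrial HSP70, rose with TBX2 by 0.66 ± 0.07 and with TBX3 by 0.40 ± 0.06. The TBX2 rise was the larger (TBX3 minus TBX2 -0.26 ± 0.08, adjusted p = 0.0343 in edgeR). Of the chaperonin subunits, CCT6A fell with TBX2 by 0.34 on the log2 scale (SE 0.06), and STUB1, a ubiquitin ligase that binds HSP70, fell with TBX2 by 0.39 (SE 0.16, adjusted p = 0.0664 in edgeR). Of 6 prefoldin subunits, 2 rose and 1 fell with TBX2, where 17.0% and 15.6% of all tested genes did. DNAJB9, HSP90B1, HSPA12A and GRPEL2 were picked from the fixed list of other chaperones partly after their values were seen.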
